A study of Mus musculus with 36 samples.

Results

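The subject is a group of 10 genes that encode AP-1 subunits and other immediate early factors, followed through BV-2 microglia given LPS and one of 3 drugs. The FOS family is represented by Fos, Fosb, Fosl1 and Fosl2, and the JUN family by Jun, Junb and Jund. Maff, Egr1 and Ier3 complete the group. The genes were taken by symbol, and all 10 were found among the 19879 genes measured.

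BV-2 is an immortalised mouse microglial line, labelled wild-type, and a single line stands here for microglia. Poly(A) RNA was sequenced from 36 libraries in 12 groups of 3. At 4 h and at 24 h there were cells given the vehicle dimethyl sulfoxide (DMSO) or ethanol (EtOH), cells given 600 ng/mL of the bacterial endotoxin lipopolysaccharide (LPS), and cells given the same LPS with a drug. The drugs were 30 µM dimethyl fumarate (DMF), 30 µM monomethyl fumarate (MMF) and 6 µM cannabidiol (CBD), and the vehicle share was 0.2%. DMSO was the vehicle of both fumarates and EtOH that of CBD. The solvent given with LPS alone is not stated in the sources used here. A drug and its solvent therefore cannot be told apart where a drug is set against LPS alone. No group here received a drug without LPS. Serum was lowered just before the treatment in the LPS experiments, and whether this included the vehicle groups is not given in the sources used here, so a serum change and LPS cannot be told apart where LPS is set against a vehicle. Each experiment was carried out 3 times on the same line, and p-values measure the spread between those repeats. LPS and drug libraries carry the numbers 1 to 3 and vehicle libraries 4 to 6, so LPS and vehicle libraries cannot be matched by number. In bulk RNA, fewer cells expressing a gene and less RNA per cell cannot be told apart.

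AP-1 is a pair of basic leucine zipper proteins, a JUN protein bound to a FOS, another JUN or a related partner, that sits on a short palindromic DNA site. FOS proteins cannot pair with themselves and need a JUN partner, whereas JUN proteins can pair with either family. Fos, Fosb and Egr1 are transcribed within minutes of a stimulus and then decline, Fosl1 and Fosl2 are usually slower, and Jund is comparatively steady. Small MAF proteins such as MAFF lack an activation domain and pair with CNC factors, NRF2 among them, on antioxidant response elements. Microglia use AP-1 together with NF-kB in the transcriptional answer to LPS.

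Libraries held 14110424 to 26676607 reads assigned to genes, with a median of 16230584. Of 12 microglia and macrophage markers searched, 11 were found and all 11 had a median normalized count of 10 or more, although the homeostatic microglial genes Tmem119 and P2ry12 were low, with medians of 75.9 and 43.5. The summed normalized count was at most 28.2 for astrocyte markers, 8.08 for fibroblast markers and 2.41 for T and B cell markers. Of the neuron and oligodendrocyte markers, only Map2 and Mbp were plainly read, with medians of 174 and 1101, while Rbfox3 and Mog reached at most 1.2 and 1.13. Levels below are reads divided by a size factor computed over all 36 libraries, called the normalized count, listed in the order of the library numbers. Fold changes are on the scale log2(normalized count + 1), from the deposited table of the 2 groups compared, and a gene was called when its Benjamini-Hochberg adjusted limma p over all genes of that table was under 0.05.

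The 10 genes differed widely in level. Junb was the most abundant AP-1 subunit per kilobase of exon in every group, making up 55.9% to 64.5% of the summed level of the 7 FOS and JUN genes. Jun followed with 12.7% to 21.1%, and Fosb was the smallest with at most 0.615%. Egr1, a zinc finger factor that is a standard early response marker, was nearly silent, with group means of 9.15 to 23.4 normalized counts and overlapping ranges between every group and the next in order. Ier3, a stress-inducible survival factor, had the widest relative span, its highest group mean standing 5.86-fold above its lowest, followed by Fos at 5.51-fold and Fosl1 at 4.13-fold. When the 12 groups were ordered by mean, Egr1 and Fosl2 had overlapping ranges at all 11 steps from a group to the next, Jun at 9 and each of the other genes at 10. The step without overlap for Fos and for Fosl1 was beside LPS with DMF at 4 h, the lowest Fos group and the highest Fosl1 group. For Jund it was below LPS with CBD at 24 h, the highest group, and for Maff above EtOH at 4 h, the lowest. For Jun 1 such step lay between the lowest 24 h group, LPS with MMF, and the highest 4 h group, LPS with CBD, and the other between LPS and EtOH at 4 h. For Junb it lay between LPS with MMF and DMSO at 4 h, for Ier3 between LPS with CBD at 24 h and DMSO at 4 h, and for Fosb between LPS with DMF at 24 h and LPS with CBD at 4 h.

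**Figure D1:**
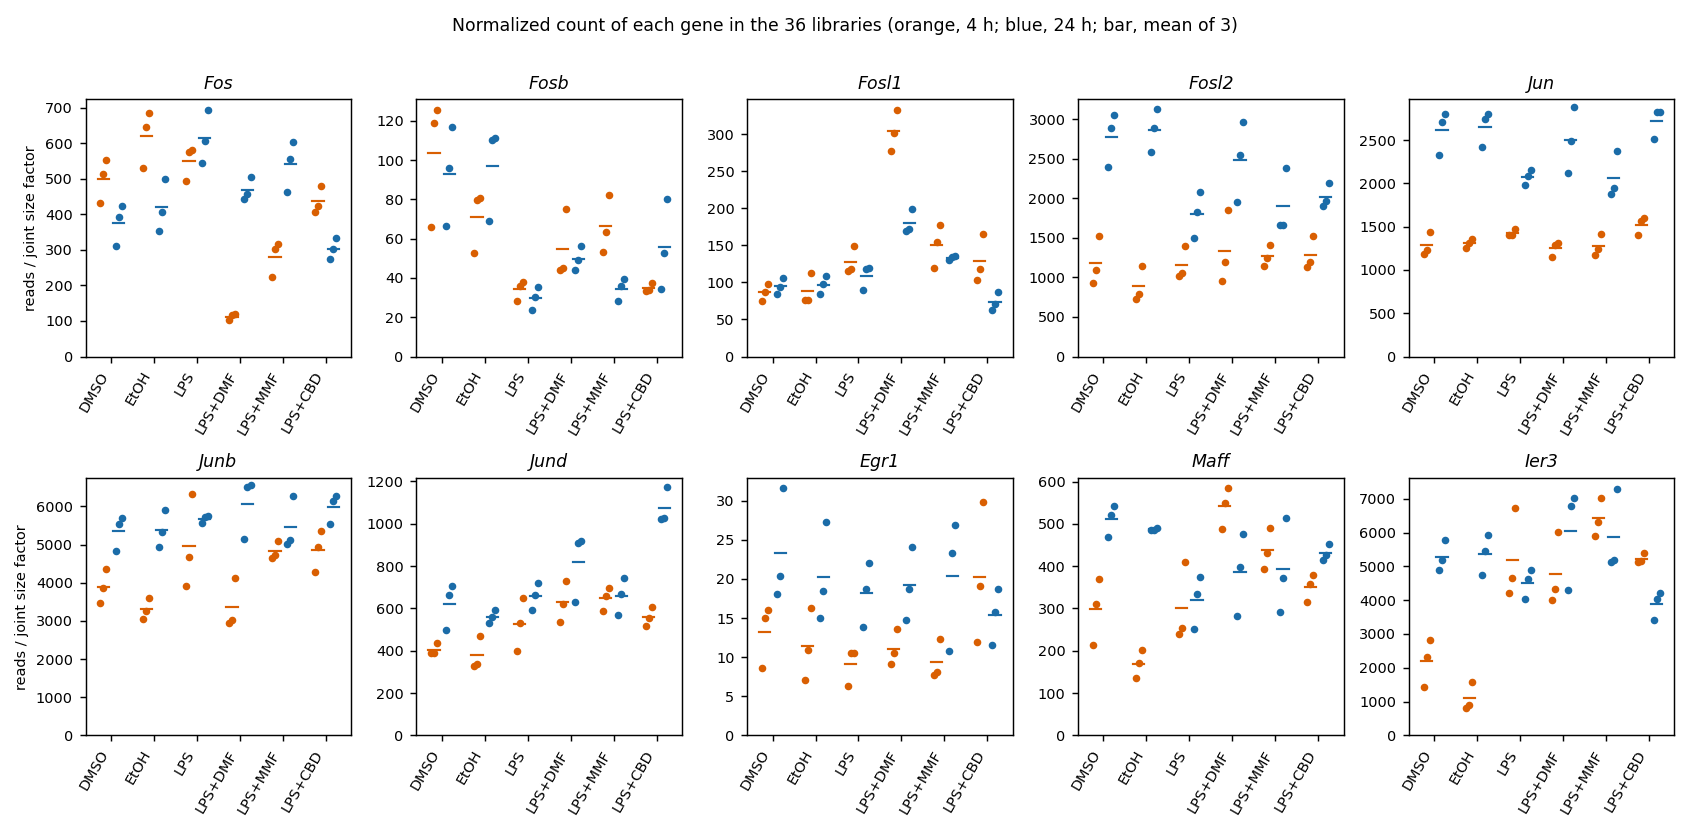
Normalized count (reads divided by the joint size factor, linear axis from 0) of each of the 10 genes in all 36 libraries, with 4 h in orange, 24 h in blue and a bar at the mean of 3 libraries. Fos is lowest and Fosl1 highest in LPS with DMF at 4 h, Fosb is lower with LPS than with vehicle, and Egr1 reaches at most 31.6 in any library.

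Fos lies at chr12:85520664-85524047 on the plus strand of GRCm39, Fosl1 at chr19:5497575-5505974 (plus), Maff at chr15:79230821-79243276 (plus) and Ier3 at chr17:36132576-36133815 (plus). Fosb is at chr7:19036621-19043976 (minus), Fosl2 at chr5:32293145-32315186 (plus), Jun at chr4:94937271-94940459 (minus), Junb at chr8:85701113-85705347 (minus) and Jund at chr8:71151599-71153265 (plus). Counting by strand is not stated in the sources used here. Fosl1 overlaps the coding gene Ccdc85b and Junb overlaps Prdx2, each on the opposite strand, so reads of these pairs may have been shared or dropped, and Fosl1 and Junb values are uncertain to that extent.

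The upstream sequence is shown for Fos, which fell with DMF, for Maff, which was higher with DMF, and for Ier3, which rose with LPS. Each run is the 250 bases before the start of the GENCODE vM39 canonical transcript in GRCm39, written 5′ to 3′ on the gene's own strand, and these starts lie at or within a few bases of the gene starts above, except for Maff, whose canonical transcript starts further downstream. Capitals mark matches to 1 of 6 motifs searched on both strands.
Fos, chr12:85520408-85520657 (plus): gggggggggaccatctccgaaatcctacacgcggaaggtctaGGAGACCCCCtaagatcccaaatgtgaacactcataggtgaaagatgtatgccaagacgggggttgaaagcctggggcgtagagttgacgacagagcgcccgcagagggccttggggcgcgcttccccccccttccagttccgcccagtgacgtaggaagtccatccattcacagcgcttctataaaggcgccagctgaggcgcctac
Maff, chr15:79231470-79231719 (plus): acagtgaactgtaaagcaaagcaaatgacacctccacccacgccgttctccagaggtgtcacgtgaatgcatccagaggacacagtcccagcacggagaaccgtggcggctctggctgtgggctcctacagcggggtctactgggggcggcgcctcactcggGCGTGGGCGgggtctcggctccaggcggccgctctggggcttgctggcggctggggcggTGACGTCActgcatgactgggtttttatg
Ier3, chr17:36132318-36132567 (plus): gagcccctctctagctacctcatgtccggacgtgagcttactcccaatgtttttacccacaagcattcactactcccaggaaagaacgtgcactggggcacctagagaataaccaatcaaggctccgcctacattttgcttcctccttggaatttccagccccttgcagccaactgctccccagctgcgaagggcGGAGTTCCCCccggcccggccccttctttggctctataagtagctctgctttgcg
The capitals in Fos, at bases -208 to -199 from the start, and in Ier3, at bases -55 to -46, match the NF-kB site. The capitals in Maff match first the EGR site, at bases -88 to -80, and then the cyclic AMP response element, at bases -29 to -22.

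The motifs were the AP-1 site TGANTCA, the cyclic AMP response element TGACGTCA, the antioxidant response element core TGACNNNGC, the EGR site GCGNGGGCG, the CArG box and the NF-kB site. The AP-1 site and the antioxidant core can lie on the same letters. Windows of 9 of the 10 genes were searched, all but Egr1, beside 21757 promoters of coding genes. The NF-kB site was found in 3 of the 9 (Fos, Fosb and Ier3) and in 7.63% of all promoters. The EGR site was also found in 3 (Fosb, Jund and Maff), against 4.48% of all promoters, and the cyclic AMP response element in 2 (Jund and Maff), against 1.70%. The antioxidant core matched only in Jund, against 9.70% of promoters, and the AP-1 site and the CArG box matched in none of the 9, against 6.18% and 1.4%. A match is a description of letters and not evidence of binding. A missing match covers only the letters searched and only the window before the transcript start. It does not show that a gene lacks such a site further away or with differing letters.

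LPS alone gave 2 calls in the group against each vehicle at 4 h. This was the first time sampled, so any earlier rise or fall was not measured. Fosb, a FOS protein tied to lasting stimulation, was at 66.2, 126 and 119 in DMSO, 52.5, 79.9 and 80.7 in EtOH and 28.5, 38.0 and 36 with LPS. Every LPS library was below every vehicle library. Fosb fell by 1.53 on the log2 scale against DMSO (SE 0.27, adjusted p = 0.00762) and by 1.02 against EtOH (SE 0.23, adjusted p = 0.0276), the latter call being lost without EtOH replicates 5 and 6 or LPS replicates 1 and 3 in turn (adjusted p from 0.0696 to 0.116). Ier3 was at 1430.4, 2827 and 2309 in DMSO, 903, 1564 and 819 in EtOH and 4199, 6718 and 4653 with LPS. The 3 LPS libraries lay above all 6 vehicle libraries. Its log2 fold change was 1.27 ± 0.25 (SE), adjusted p = 0.0128, against DMSO and 2.28 ± 0.25 (SE), adjusted p = 0.00128, against EtOH, which is 2.40-fold and 4.84-fold.

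In each of the comparisons of LPS with a vehicle at 4 h, Ier3 was the 1 gene of the group called higher and Fosb the 1 called lower, of 9 tested against DMSO (Egr1 fell under the filter) and 10 against EtOH. Of all genes, 7.7% were called higher and 6.38% lower against DMSO, and 5.69% and 4.48% against EtOH. These comparisons share the LPS libraries. Fos itself, the founding FOS protein, was at 492, 580.0 and 576 with LPS, inside the span of 432, 554 and 514 in DMSO and 529, 686 and 644 in EtOH. Its difference from DMSO was 0.13, adjusted p = 0.491, with a 95% interval of -0.14 to 0.40. Fosl1 differed by 0.55, adjusted p = 0.0625 against DMSO and 0.54, adjusted p = 0.128 against EtOH. The Fosl1 difference from DMSO was called in a fit of all 36 libraries (adjusted p = 0.027). Junb and Maff differed by 0.57 and 0.80 against EtOH, both with an adjusted p of 0.0587. Both were called with DESeq2 (adjusted p = 0.00263 and 0.00489), which raised the count against EtOH from 2 to 4, and in the fit of all 36 libraries (adjusted p = 0.0038 and 0.00691), where Fosl1 was called too (adjusted p = 0.0407) and the count was 5. DESeq2 called 12.2% of all genes in that comparison, and the fit of all 36 libraries 13.6%.

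By 24 h the LPS pattern involved 5 of the 10 genes. Fos was at 545, 693 and 607 with LPS, against 309.8, 423 and 393 in DMSO and 407, 498 and 354 in EtOH, with no overlap. It rose by 0.73 ± 0.13 (SE), adjusted p = 0.00243, relative to DMSO and 0.57 ± 0.13 (SE), adjusted p = 0.0117, relative to EtOH, and the second call was lost without EtOH replicate 6 (adjusted p = 0.0501). Fosb remained low, at 35.3, 23.5 and 30.3 with LPS beside 117, 96.1 and 66.2 in DMSO and 111, 69.2 and 110.5 in EtOH. None of its LPS libraries reached any vehicle library, and the log2 fold changes were -1.58 ± 0.25 (SE), adjusted p = 0.000963, and -1.65 ± 0.24 (SE), adjusted p = 0.000585, respectively.

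Fosl2, a FOS protein that persists after Fos has gone, was at 1492, 2085 and 1832 with LPS, 2396, 3051 and 2889 in DMSO and 2579.7, 2892 and 3127 in EtOH. It was lower in all 3 LPS libraries than in any vehicle library, with log2 fold changes of -0.62, adjusted p = 0.00469, and -0.67, adjusted p = 0.002. Maff was at 253, 375 and 333 with LPS against 469.9, 542 and 521 in DMSO and 485, 486 and 490.3 in EtOH, again without overlap. Its changes were -0.68, adjusted p = 0.00522, and -0.61, adjusted p = 0.008. Jun, the founding JUN protein, was at 1978, 2090.1 and 2153 with LPS, 2326, 2807 and 2705 in DMSO and 2422, 2801 and 2743 in EtOH. All LPS libraries were below the vehicle libraries, but the difference was small, -0.32, adjusted p = 0.02, against DMSO and -0.35, adjusted p = 0.0106, against EtOH. The Jun call against DMSO was lost without DMSO replicates 5 and 6 or LPS replicates 1 and 3 in turn (adjusted p from 0.0533 to 0.0935), and that against EtOH without EtOH replicate 5 (adjusted p = 0.0652).

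Against each vehicle at 24 h, Fos was the 1 gene of the group called higher and Fosb, Fosl2, Jun and Maff were the 4 called lower, of 10 tested. The share of all genes called higher and lower was 12.1% and 10.6% against DMSO, and 10.8% and 9.72% against EtOH. The median of the 10 log2 fold changes was -0.26 and -0.18, beside 0.01 and 0.01 for all genes. Ier3, raised at 4 h, was not called, with -0.22, adjusted p = 0.117, and -0.24, adjusted p = 0.12.

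**Figure D2:**
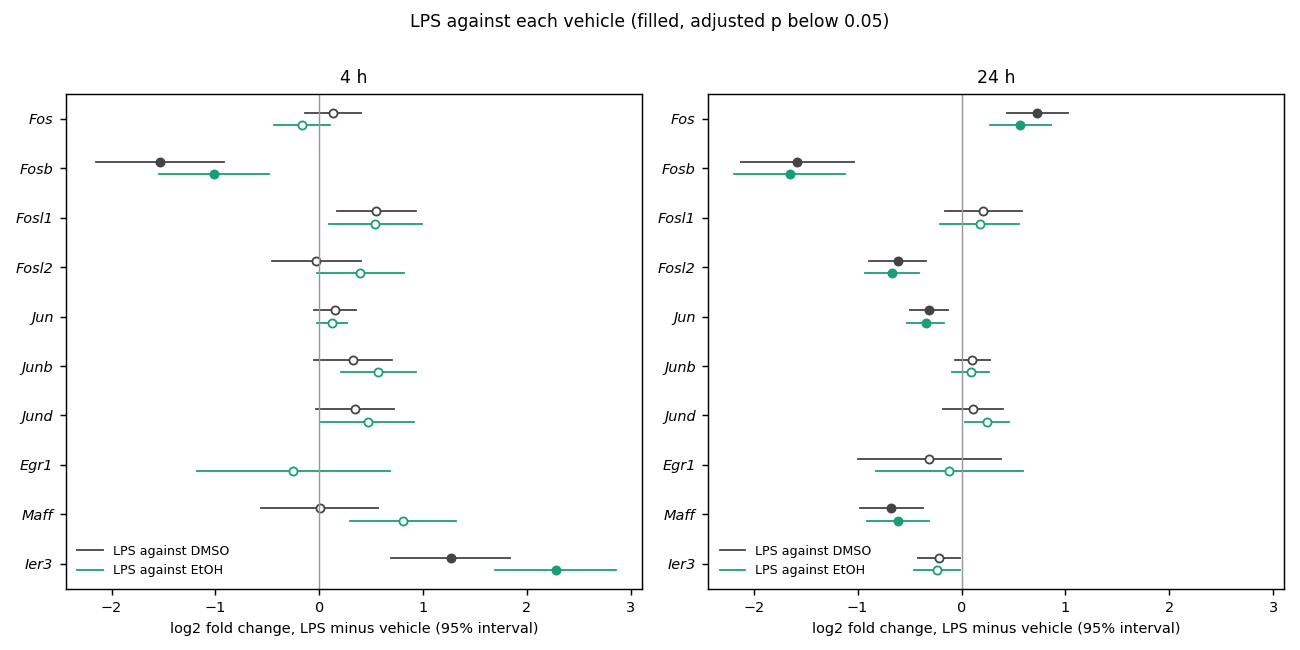
Log2 fold change of each gene with LPS against DMSO and against EtOH, at 4 h and 24 h, with 95% intervals; filled points are called. Of the called genes, Ier3 is above 0 and Fosb below at 4 h, and Fos is above 0 and Fosb, Fosl2, Jun and Maff are below at 24 h.

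The LPS effect itself was tested for a difference between the times (24 h minus 4 h) in a fit of 12 libraries. Against DMSO, 2 of 10 genes were called, where 9.46% of all genes were, namely Ier3 at -1.50 ± 0.29 (SE), adjusted p = 0.00631, and Jun at -0.48 ± 0.12 (SE), adjusted p = 0.0242. Fos against DMSO was not called by limma but was by edgeR (0.62, adjusted p = 0.0479) and DESeq2 (0.60, adjusted p = 0.0286). Against EtOH, 5 of 10 were called, beside 9% of all genes. Ier3, at -2.52 ± 0.29 (SE), adjusted p = 0.000396, Maff, at -1.42 ± 0.28 (SE), adjusted p = 0.00654, Fosl2, at -1.07, adjusted p = 0.0117, and Jun, at -0.48, adjusted p = 0.00922, had the lower effect at 24 h, and Fos, at 0.73, adjusted p = 0.0304, the higher. The Jun call against DMSO was lost without DMSO 4 h replicates 4 and 6, LPS 4 h replicate 3, DMSO 24 h replicates 5 and 6 or LPS 24 h replicate 1 in turn (adjusted p from 0.0505 to 0.0673). The Fos call against EtOH was lost without EtOH 4 h replicates 5 and 6, LPS 4 h replicates 1 and 3, EtOH 24 h replicates 4 and 6 or LPS 24 h replicates 2 and 3 in turn (adjusted p from 0.0505 to 0.0794).

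Among the 3 drugs at 4 h, DMF gave the largest log2 fold changes against LPS alone in the group, a fall of Fos and a rise of Fosl1. Fos was at 119, 116 and 102 in LPS with DMF, against 492, 580.0 and 576 with LPS alone. All 3 DMF libraries stood below every other Fos library of the series. The log2 fold change was -2.28 ± 0.13 (SE), adjusted p = 2.45e-05, which is 4.86-fold lower. Fosl1, which encodes FRA-1, a FOS protein without a classical activation domain, went the other way, at 278, 301 and 333 with DMF and 116, 149.8 and 118 without. All 3 DMF libraries were above every other library of the series. Fosl1 rose by 1.25 ± 0.15 (SE), adjusted p = 0.00103, or 2.37-fold. Ccdc85b, the coding gene on the opposite strand of Fosl1, differed by -0.08 in the same comparison, adjusted p = 0.713.

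Maff was at 585, 551 and 489 with DMF and 254, 409 and 241 with LPS, again without overlap. It rose by 0.88 ± 0.19 (SE), adjusted p = 0.0193, but the call was lost without LPS replicates 1 and 3 or LPS with DMF replicates 1 and 3 in turn (adjusted p from 0.0524 to 0.0842). Junb, the JUN protein often found to restrain Jun, was at 2943, 4128 and 3022 with DMF and 3909, 6319 and 4687 with LPS, where 1 DMF library lay above the lowest LPS library. Its difference was -0.56, adjusted p = 0.0972 by limma. Junb was called with DESeq2 (adjusted p = 0.0264), in a fit of all 36 libraries (adjusted p = 0.00295) and with the replicate number as a block (adjusted p = 0.00348). The remaining genes were not called, with 95% intervals of -0.39 to 0.01 for Jun, -0.14 to 0.69 for Jund, -0.34 to 0.68 for Fosl2, 0.03 to 1.23 for Fosb and -0.56 to 0.33 for Ier3. In total 2 of 9 tested genes were called higher and 1 lower, where 4.55% and 6.51% of all genes were.

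The opposite movements changed the make-up of the FOS family. Per kilobase of exon, the Fos to Fosl1 ratio was 3.74 ± 0.444 (SD, n = 3) with LPS and 0.322 ± 0.0536 with DMF at 4 h, the only group in which Fosl1 exceeded Fos. The ratio was 1.61 ± 0.0776 with MMF and 2.99 ± 0.442 with CBD at 4 h, and 5.08 ± 1.28 in DMSO and 6.21 ± 1.46 in EtOH. At 24 h it was 2.25 ± 0.314 with DMF, the lowest of that time, beside 4.90 ± 0.471 with LPS, 3.50 ± 0.414 with MMF and 3.60 ± 0.550 with CBD. Fos accounted for 56.6% of the 4 FOS family genes with LPS and 14.5% with DMF at 4 h, and Fosl1 for 15.2% and 45.2%. These shares restate the separate changes of Fos and Fosl1 on the per-kilobase scale and were given no test.

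**Figure D3:**
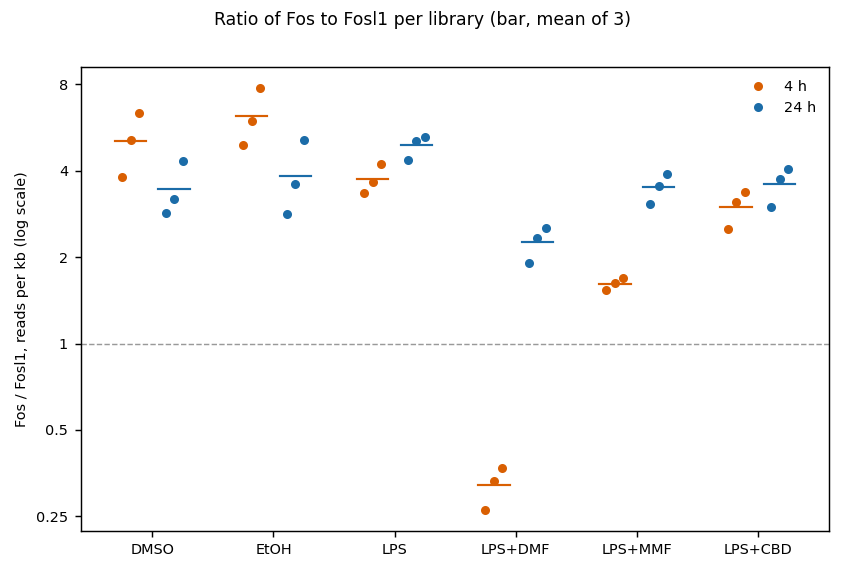
Ratio of Fos to Fosl1, both per kilobase of exon, in each library of the 12 groups on a log axis, with the mean of 3 as a bar. LPS with DMF at 4 h is the only group below 1, with libraries from 0.264 to 0.370.

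At 24 h Fos was still lower and Fosl1 still higher with DMF. Fos was at 505, 458 and 442 with DMF and 545, 693 and 607 with LPS, so that the groups did not overlap. It fell by 0.39 on the log2 scale (SE 0.10, adjusted p = 0.0216), and the call was lost without LPS replicate 3 or LPS with DMF replicates 2 and 3 in turn (adjusted p from 0.0668 to 0.098). Fosl1 was at 172, 169.7 and 199.6 with DMF and 89.3, 118 and 119.8 with LPS, with every DMF library higher. It rose by 0.73 ± 0.15 (SE), adjusted p = 0.00635.

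Fosb and Fosl2 were also called at 24 h. Fosb was at 49.1, 44.1 and 56.3 with DMF and 35.3, 23.5 and 30.3 with LPS, without overlap, a change of 0.74, adjusted p = 0.036. Fosl2 was at 1947, 2968 and 2548 and 1492, 2085 and 1832, where the lowest DMF library was below the highest LPS library, a change of 0.45, adjusted p = 0.0491. The Fosb call was lost without LPS replicates 2 and 3 or LPS with DMF replicates 1, 2 and 3 in turn (adjusted p from 0.0589 to 0.147), with no filter on low values (adjusted p = 0.0747) and with DESeq2 (adjusted p = 0.0532). The Fosl2 call was lost without LPS replicates 1 and 3 or LPS with DMF replicates 2 and 3 in turn (adjusted p from 0.114 to 0.165), with TMM scaling (adjusted p = 0.0522) and in a fit of all 36 libraries (adjusted p = 0.0999).

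In all, 3 of the 10 genes were called higher and 1 lower with DMF at 24 h, against 11.9% and 13.2% of all genes. With the replicate number as a block 7 were called, adding Jun (adjusted p = 0.0181), Maff (adjusted p = 0.0436) and Ier3 (adjusted p = 0.00495). DESeq2 called Ier3 too (0.42, adjusted p = 0.025). The block called 39.1% of all genes in this comparison. The DMF effect differed between the times for 2 of 10 genes, beside 16.3% of all genes. For Fos the effect at 24 h was higher by 1.89 ± 0.16 (SE), adjusted p = 7.82e-06, that is, closer to 0, and for Jun it was higher by 0.45 ± 0.14 (SE), adjusted p = 0.0423. The Jun call was lost with no filter on low values (adjusted p = 0.0583) and without LPS 4 h replicates 1, 2 and 3, LPS with DMF 4 h replicate 3, LPS 24 h replicates 1, 2 and 3 or LPS with DMF 24 h replicates 2 and 3 in turn (adjusted p from 0.0594 to 0.112). With the replicate number as a block within each time 5 of 10 were called, beside 24.2% of all genes, adding Junb (0.64, adjusted p = 0.00162), Maff (-0.63, adjusted p = 0.0264) and Ier3 (0.50, adjusted p = 0.0152). The difference for Fosl1 was -0.52, adjusted p = 0.114, with a 95% interval of -0.97 to -0.06.

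**Figure D4:**
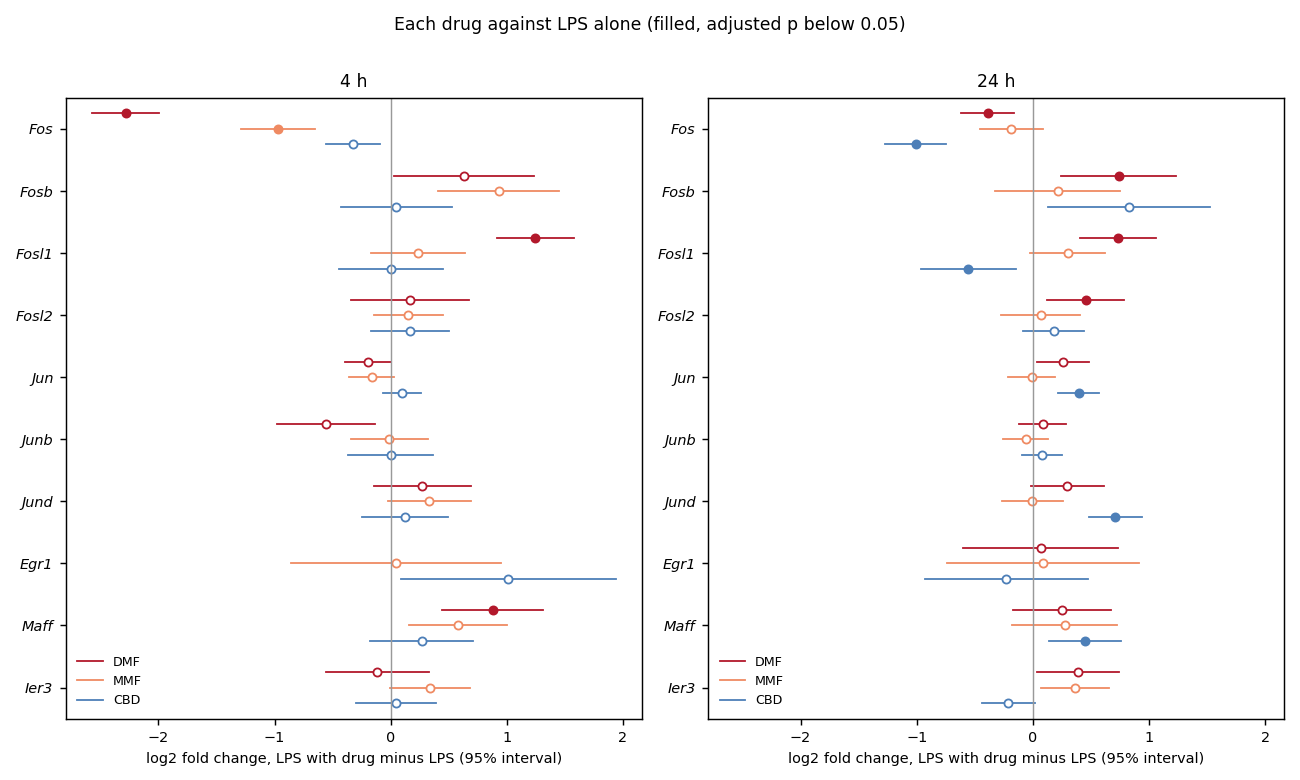
Log2 fold change of each gene with DMF, MMF or CBD on top of LPS against LPS alone, at 4 h (left) and 24 h (right), with 95% intervals; filled points are called, and Egr1 with DMF at 4 h was under the filter. Fos is lowest with DMF at 4 h and with CBD at 24 h, and Fosl1 is above 0 with DMF at both times and below 0 with CBD at 24 h.

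MMF, the monomethyl ester that DMF is hydrolysed to, gave 1 call in the group at 4 h and none at 24 h. At 4 h Fos was at 316, 303 and 224 with MMF, all below the LPS libraries and all above the DMF libraries. It fell by 0.97 on the log2 scale (SE 0.14, adjusted p = 0.0485), 1.96-fold, and the call was lost without LPS replicates 1 and 3 or LPS with MMF replicates 1, 2 and 3 in turn (adjusted p from 0.0548 to 0.34). It was the 1 gene of 10 called lower, with 0 called higher, in a comparison where 0.0437% of all genes were called lower and 0.0787% higher. Fosb, at 53.5, 63.2 and 82.4 with MMF, lay above the LPS libraries but was not called (0.93, adjusted p = 0.384). Fosl1 differed by 0.23, adjusted p = 0.831, with an interval of -0.17 to 0.64.

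At 24 h none of the 10 genes was called with MMF, and neither was any of all genes by limma (0% higher, 0% lower). At an unadjusted p under 0.05 the count was 440 genes, Ier3 being the only one of the 10. edgeR called 0 genes and DESeq2 17, with none of the 10 among them. With the replicate block Ier3, at 5175, 7282 and 5135 with MMF and 4025, 4895 and 4624 with LPS, was called (0.36, adjusted p = 0.000475), beside 1.78% of all genes. Intervals of the unblocked differences were -0.46 to 0.08 for Fos, -0.03 to 0.62 for Fosl1 and -0.22 to 0.19 for Jun. The MMF effect was called different between the times for 0 of 10 genes and for 0% of all genes by limma. The smallest adjusted p over all genes was 0.9997, 385 genes had an unadjusted p under 0.05, and edgeR and DESeq2 each called 0.

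DMF and MMF differ by 1 methyl ester, and both were given at 30 µM, so their libraries were compared directly. Of 19 differences tested over the 10 genes and both times, 4 were called, with p-values adjusted over all genes. At 4 h Fos was lower with DMF than with MMF, with a log2 difference of -1.31 ± 0.17 (SE), adjusted p = 0.00214, and Fosl1 was higher, with 1.02 ± 0.17 (SE), adjusted p = 0.00614, neither with overlapping libraries. Fosl1 was at 178, 155 and 119 with MMF beside the DMF values given above. Junb was at 4718, 4639 and 5102 with MMF and 2943, 4128 and 3022 with DMF, every DMF library being lower. Its difference was -0.54, adjusted p = 0.028, a call lost without LPS with MMF replicates 1, 2 and 3 or LPS with DMF replicates 1 and 3 in turn (adjusted p from 0.067 to 0.126). Of 9 genes tested at 4 h, 1 was thus higher and 2 were lower with DMF, against 3.37% and 4.97% of all genes.

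At 24 h Fosl1 was at 135, 134 and 130.1 with MMF and 172, 169.7 and 199.6 with DMF, still without overlap. It was the 1 of 10 genes called, higher with DMF by 0.43 ± 0.11 (SE), adjusted p = 0.0255, with 0 called lower, while 10.1% of all genes were higher and 11.4% lower. The call was lost without LPS with MMF replicates 1 and 3 or LPS with DMF replicate 3 in turn (adjusted p from 0.0666 to 0.113) and in a fit of all 36 libraries (adjusted p = 0.0837). The replicate block left Fosl1 called and added 3 genes, Fosl2 (0.39, adjusted p = 0.000483), Jun (0.27, adjusted p = 0.00115) and Jund (0.30, adjusted p = 0.00424). With the block 39.8% of all genes were called, a share close to that of the group. The Fos difference at 24 h was -0.20, with an interval of -0.44 to 0.04. Among the other uncalled differences, the interval was 0.04 to 0.57 for Maff, -0.77 to -0.13 for Ier3 and -0.35 to 0.23 for Jund at 4 h, and -0.51 to 0.46 for Maff, -0.39 to 0.44 for Ier3 and -0.10 to 0.39 for Junb at 24 h. Ier3 at 4 h, uncalled by limma, was called with DESeq2 (-0.43, adjusted p = 0.0447). The replicate block called it as well (-0.45, adjusted p = 0.0445), though the numbers do not pair in that comparison. An uncalled difference with such an interval does not show that the esters acted alike.

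**Figure D5:**
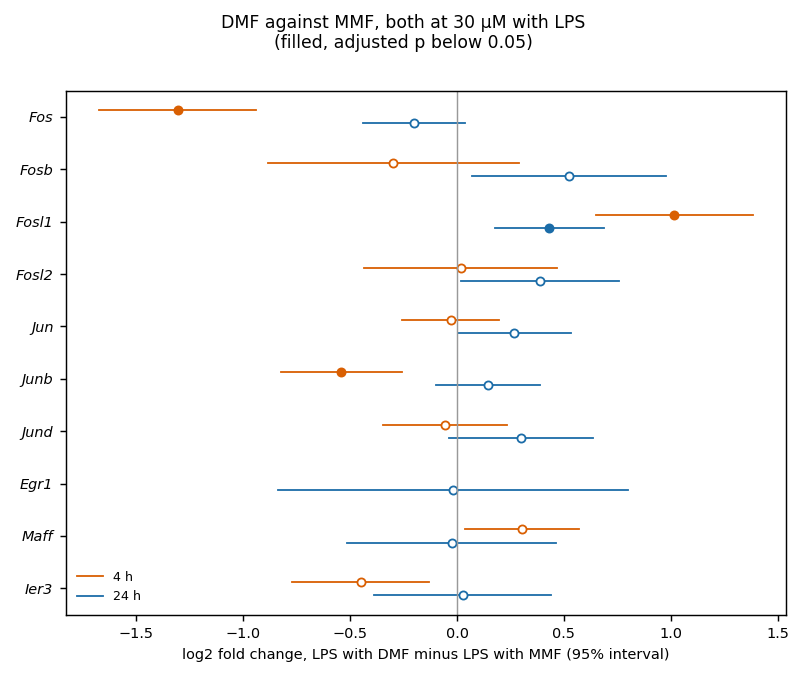
Log2 difference between LPS with DMF and LPS with MMF for each gene at 4 h and 24 h, with 95% intervals; filled points are called. Of the called genes, Fos and Junb are below 0 and Fosl1 is above 0 at 4 h, and Fosl1 alone is called at 24 h.

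CBD moved none of the 10 genes past the threshold at 4 h. Fos was at 406, 480.3 and 423 with CBD and 492, 580.0 and 576 with LPS, all CBD libraries being lower, at -0.32, adjusted p = 0.994. Higher calls made up 0.00875% of all genes and lower calls 0%. Beside these 0 calls by limma, 363 genes had an unadjusted p under 0.05, 2 of the 10 among them, and edgeR and DESeq2 called 1 and 3 genes, none of them of this group.

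At 24 h 5 of the 10 genes were called with CBD, 3 higher and 2 lower, a share close to that of all genes in this comparison, of which 23.9% were called higher and 24.8% lower. Fos was at 304, 332 and 274 with CBD against 545, 693 and 607 with LPS, and below the libraries of the other LPS groups of that time. It fell by 1.01 on the log2 scale (SE 0.12, adjusted p = 0.000132), 2.01-fold. Fosl1 was lower too, at 87.5, 70.6 and 63.0 beside 89.3, 118 and 119.8 with LPS, with every CBD library lower. Its change was -0.55, adjusted p = 0.0315, a call lost without LPS replicates 2 and 3 or LPS with CBD replicates 2 and 3 in turn (adjusted p from 0.0638 to 0.117) and with no filter on low values (adjusted p = 0.0527). Ccdc85b, on the opposite strand of Fosl1, also fell, by 0.67 on the log2 scale (adjusted p = 0.00148), and its part in the Fosl1 value was not tested.

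Jund and Jun rose with CBD at 24 h. Jund, the JUN protein often linked to growth arrest and protection from oxidative stress, was at 1028, 1022 and 1172 with CBD and 721, 594 and 663 with LPS. All CBD libraries were higher than any other Jund library of the series. It rose by 0.71 ± 0.10 (SE), adjusted p = 0.000445. Jun was at 2511, 2823 and 2824 and 1978, 2090.1 and 2153, without overlap, a rise of 0.39 ± 0.08 (SE), adjusted p = 0.00278. Maff was at 452, 426 and 414 and 253, 375 and 333, also apart, a rise of 0.45, adjusted p = 0.0239, lost without LPS replicates 1 and 3 or LPS with CBD replicate 1 in turn (adjusted p from 0.0511 to 0.0739) and in a fit of all 36 libraries (adjusted p = 0.071). Junb differed by 0.08, with an interval of -0.09 to 0.25.

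Fosb, at 80.1, 34.4 and 52.8 with CBD and 35.3, 23.5 and 30.3 with LPS, had 0.83, adjusted p = 0.0507, just over the threshold. It was called with a pseudocount of 4 (adjusted p = 0.0491), TMM scaling (adjusted p = 0.0485) and edgeR (adjusted p = 0.0402). DESeq2 (adjusted p = 0.0297), a fit of all 36 libraries (adjusted p = 0.0155) and the replicate block (adjusted p = 0.00973) called it too. The CBD effect differed between the times for 3 of 10 genes, against 32% of all genes. Fos changed by -0.68 ± 0.16 (SE), adjusted p = 0.00546, Jund by 0.59 ± 0.20 (SE), adjusted p = 0.0395, and Jun by 0.30 ± 0.10 (SE), adjusted p = 0.0422. The Jun call was lost without LPS 4 h replicates 1, 2 and 3, LPS with CBD 4 h replicates 2 and 3, LPS 24 h replicates 1, 2 and 3 or LPS with CBD 24 h replicates 2 and 3 in turn (adjusted p from 0.0514 to 0.104), and the Jund call without LPS 4 h replicates 2 and 3, LPS with CBD 4 h replicates 1 and 3, LPS 24 h replicates 2 and 3 or LPS with CBD 24 h replicates 1 and 3 in turn (adjusted p from 0.0537 to 0.0945). With no filter on low values both were lost (adjusted p = 0.0604 and adjusted p = 0.0515), and in a fit of all 36 libraries Jun was (adjusted p = 0.103). The replicate block added Egr1 (-1.24, adjusted p = 0.0489), which rests on few reads. The DMF, MMF and CBD comparisons share the LPS libraries of each time.

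CBD and the fumarates were given at different doses, 6 µM and 30 µM, and in different vehicles, so their values are set side by side. At 4 h mean Fos was 437 ± 38.8 (SD, n = 3) with CBD, 281 ± 49.7 with MMF and 112 ± 9.13 with DMF. At 24 h mean Fos was 303 ± 29.2 with CBD, 541 ± 72.2 with MMF and 468 ± 32.5 with DMF, and CBD was the lowest, with no library reaching those of the fumarates. In the direct tests 4 of 10 genes were called between CBD and DMF at 4 h (Fos, Fosl1, Junb and Maff), beside 15.5% of all genes, and 4 at 24 h (Fos, Fosl1, Jund and Ier3), beside 38.5%. At 4 h the Junb call was lost without LPS with DMF replicates 1 and 3 or LPS with CBD replicates 2 and 3 in turn (adjusted p from 0.066 to 0.115). Jun was added with the replicate block (adjusted p = 0.0185), with DESeq2 (adjusted p = 0.0395) and in a fit of all 36 libraries (adjusted p = 0.0353). At 24 h the Jund call was lost without LPS with DMF replicates 1 and 3 or LPS with CBD replicates 1, 2 and 3 in turn (adjusted p from 0.051 to 0.126) and the Ier3 call without LPS with DMF replicates 2 and 3 or LPS with CBD replicate 3 in turn (adjusted p from 0.0616 to 0.0875), and the block added Fosl2 (adjusted p = 0.0132). Between CBD and MMF the count was 0 at 4 h by limma, where 0.166% of all genes were called and 6 of the 10 had an unadjusted p under 0.05. edgeR called 19 genes there and DESeq2 74, Fos among the latter (0.64, adjusted p = 0.00732). A fit of all 36 libraries called Fos too (0.65, adjusted p = 0.0366). With the replicate block 5 of the 10 were called, beside 7.78% of all genes, among them Fos at 0.65, adjusted p = 2.21e-05, and Ier3 at -0.29, adjusted p = 3.4e-05. At 24 h Fos, Fosl1, Jun, Jund and Ier3 were called, 5 of 10, beside 48.3% of all genes.

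Set against its own vehicle, each LPS and drug combination holds the LPS and the drug effect together. With DMF at 4 h 5 of 10 genes were called against DMSO, where 23.5% of all genes were. Fos was lower (-2.15, adjusted p = 1.47e-05) and Fosl1 higher, with 1.79, adjusted p = 6.99e-05, with Maff, Jund and Ier3 also higher, at 0.88, 0.62 and 1.15. With MMF at 4 h 4 of 10 were called (8.22% of all genes), Fos at -0.84, Fosl1 at 0.78, Jund at 0.67 and Ier3 at 1.60. With CBD at 4 h 6 of 10 were called against EtOH (13.6% of all genes), Fos at -0.49 and Fosb at -0.97 being lower and Ier3 at 2.32, Maff at 1.07, Jund at 0.59 and Junb at 0.57 higher. With MMF the Fosl1 call was lost without DMSO replicates 5 and 6 or LPS with MMF replicates 1 and 2 in turn (adjusted p from 0.0657 to 0.101). With CBD the Fos call was lost without EtOH replicate 6 or LPS with CBD replicates 1 and 3 in turn (adjusted p from 0.0706 to 0.0982), the Fosb call without EtOH replicate 6 or LPS with CBD replicate 3 in turn (adjusted p from 0.0676 to 0.0851) and the Jund call without EtOH replicates 4 and 6 or LPS with CBD replicates 2 and 3 in turn (adjusted p from 0.0723 to 0.104).

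At 24 h the counts against the vehicle were 3 of 10 with DMF (40.2% of all genes), 5 with MMF (22.4%) and 5 with CBD (50.5%). Fos was above its vehicle with DMF, at 0.35, and with MMF, at 0.55, and below it with CBD, at -0.45, all called. Fosb was lower in all 3, at -0.84, -1.36 and -0.83. Fosl1 was higher with DMF and MMF, at 0.95 and 0.51. Jund was higher with CBD, at 0.94, whereas Ier3 and Fosl2 were lower, at -0.46 and -0.50. With MMF Fosl2 and Jun were lower, at -0.55 and -0.32. The Fos call with DMF was lost without DMSO replicates 4 and 6 or LPS with DMF replicates 1, 2 and 3 in turn (adjusted p from 0.0616 to 0.125). With MMF the Fos call was lost without LPS with MMF replicate 1 (adjusted p = 0.0576), the Fosl1 call without DMSO replicate 5 or LPS with MMF replicates 1 and 3 in turn (adjusted p from 0.0635 to 0.0749), the Fosl2 call without DMSO replicates 5 and 6 or LPS with MMF replicates 1 and 3 in turn (adjusted p from 0.0788 to 0.0947) and the Jun call without DMSO replicates 5 and 6 or LPS with MMF replicates 1 and 3 in turn (adjusted p from 0.153 to 0.163). With CBD the Fos call was lost without EtOH replicate 5 or LPS with CBD replicates 1 and 3 in turn (adjusted p from 0.0554 to 0.0906) and the Fosb call without EtOH replicates 4 and 6 or LPS with CBD replicates 2 and 3 in turn (adjusted p from 0.0713 to 0.131). In a fit of all 36 libraries the Fos call with DMF (adjusted p = 0.072) and the Ier3 call with CBD (adjusted p = 0.0764) were lost.

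The vehicles were compared with each other as well. No gene of the 10 was called between DMSO and EtOH at either time by limma, where 0% of all genes at 4 h and 0.00854% at 24 h were, with 1051 and 430 genes at an unadjusted p under 0.05. edgeR called 0 genes and DESeq2 87 at 4 h, and 1 and 3 at 24 h, with none of the 10 among them. With the replicate block 876 genes (7.65% of all genes) were called at 4 h. Among them were 5 of the 10, Ier3 (1.01, adjusted p = 0.00015), Maff (0.80, adjusted p = 0.00343) and Fosl2 (0.43, adjusted p = 0.00165) being higher in DMSO, Junb (0.24, adjusted p = 0.00588) slightly so, and Fos (-0.30, adjusted p = 0.00958) lower. Maff at 4 h was at 214, 371 and 311 in DMSO and 172, 201 and 135 in EtOH, every EtOH library being lower. The 4 h LPS changes of Maff and Ier3 differed in size with the vehicle, with Maff at 0.80 against EtOH and 0.0023 against DMSO, and Ier3 at 2.28 and 1.27.

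Many of the genes also differed between the times. In both vehicles 7 of 10 genes differed between 24 h and 4 h, against 51.6% of all genes in DMSO and 58.6% in EtOH. Fosl2, Jun, Junb, Jund, Maff and Ier3 were higher at 24 h and Fos was lower. Jun went from 1189, 1439 and 1230.1 at 4 h to 2326, 2807 and 2705 at 24 h in DMSO, and every 24 h library was above every 4 h library. The change was 1.0 ± 0.09 (SE), adjusted p = 2.8e-05, in DMSO and 0.99 ± 0.07 (SE), adjusted p = 7.58e-06, in EtOH. Fosl2 changed by 1.23, adjusted p = 0.000115, and 1.70, adjusted p = 1.38e-05, and Ier3 by 1.30, adjusted p = 0.000278, and 2.33, adjusted p = 1.32e-05. Fos changed by -0.44 and -0.59, and its call in DMSO was lost without DMSO 4 h replicate 6 or DMSO 24 h replicate 4 in turn (adjusted p from 0.0551 to 0.0601).

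With LPS 2 of the 10 genes differed between the times (48.9% of all genes), Fosl2 at 0.64, adjusted p = 0.00519, and Jun at 0.53, adjusted p = 0.000463. With LPS and DMF 6 did (58.8% of all genes), among them Fos at 2.04, adjusted p = 2.36e-06, Junb at 0.85, Fosl1 at -0.76 and Maff at -0.53. With MMF 4 did (49.5% of all genes), with Fos at 0.94 and Fosb at -0.92. With CBD 8 did (63.2% of all genes), with Jund at 0.93, Jun at 0.83, Fosl1 at -0.79 and Fos at -0.53. The Maff call was lost without LPS with DMF 4 h replicate 1 or LPS with DMF 24 h replicate 1 in turn (adjusted p from 0.0648 to 0.0717) with DMF. With CBD the Junb and Maff calls were lost without LPS with CBD 4 h replicate 1 or LPS with CBD 24 h replicate 1 in turn (adjusted p from 0.0601 to 0.0767) and without LPS with CBD 4 h replicates 1 and 3 or LPS with CBD 24 h replicates 1 and 2 in turn (adjusted p from 0.0512 to 0.112), and in a fit of all 36 libraries Junb (adjusted p = 0.0505), Maff (adjusted p = 0.211) and Ier3 (adjusted p = 0.0873) were lost. Jun and Fosl2 were thus higher at 24 h in all 6 treatments, while Fos fell with time in the vehicles and with CBD and rose with DMF and MMF. Time after treatment is also time in culture, and the pair cannot be told apart.

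Other genes of the pathway were counted from 4 lists. The first held 10 textbook AP-1 targets, among them the matrix proteases Mmp3, Mmp9 and Mmp13. With LPS at 4 h against DMSO, 6 of the 10 targets were called, all higher, where 14.1% of all genes were called in either direction, with a median log2 fold change of 0.45 beside -0.00046 for all genes, led by Mmp13 at log2 fold change 4.94 ± 0.34, adjusted p = 6.91e-05. Against EtOH 5 were higher and 1 lower (10.2% of all genes called). With DMF at 4 h 5 of 10 were called, all lower (11.1% of all genes called), with a median of -0.70 beside 0.01. They included Mmp13, at log2 fold change -2.19 ± 0.44, adjusted p = 0.0137, and Plau, the urokinase plasminogen activator, at log2 fold change -1.42 ± 0.19, adjusted p = 0.00176. The direction differed at 24 h, when 4 were called with DMF, all higher (25.1% of all genes called), with Mmp3 at log2 fold change 2.55 ± 0.33, adjusted p = 0.000786, and a median of 0.12 beside -0.01. With CBD at 24 h 1 was higher and 5 were lower (48.7% of all genes called), with a median of -0.54 beside -0.0019, among them cyclin D1 (Ccnd1) at -1.70 and the urokinase receptor Plaur at -1.23. At 24 h LPS called 6 against DMSO and 7 against EtOH, 5 of them higher in each, where 22.7% and 20.5% of all genes were called.

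The second list held 11 bZIP factors that pair with FOS, JUN or small MAF proteins. At 4 h LPS called 4 of 9 tested against either vehicle, all higher, with Atf3, a stress-induced factor, at 1.32 against DMSO and 1.80 against EtOH, and Batf2 at 1.44 and 1.80. Of all genes 14.1% and 10.2% were called there in either direction. DMF at 4 h called 2 higher and 2 lower (11.1% of all genes called), with Batf2 at log2 fold change -3.03 ± 0.46, adjusted p = 0.00341, and Mafg, a small MAF factor like Maff, at log2 fold change 0.76 ± 0.09, adjusted p = 0.000889. At 24 h DMF called 3 higher and 1 lower, Batf3 at -0.75, beside 25.1% of all genes in either direction. CBD at 24 h called 5 of 10, all higher, beside 48.7% of all genes in either direction, with Atf3 at log2 fold change 1.81 ± 0.10, adjusted p = 4.1e-06. LPS at 24 h called 1, Jdp2, at 0.45 against DMSO and 0.44 against EtOH, beside 22.7% and 20.5% of all genes. The list medians were 0.06 with LPS against DMSO at 4 h, 0.26 and 0.23 with DMF, and 0.21 with CBD at 24 h, with those of all genes between -0.01 and 0.01.

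Other immediate early genes (20 listed, 16 or 17 tested) were mixed in direction. With LPS at 4 h 2 were higher and 1 lower against DMSO, and 4 were higher and 1 lower against EtOH, beside 14.1% and 10.2% of all genes in either direction, with Phlda1 at 1.2 and 1.36. At 24 h the counts were 3 higher and 4 lower, and 1 higher and 5 lower, with Klf10, a TGF-beta early gene, at -0.95 and -1.04. Of all genes 22.7% and 20.5% were called there. DMF at 4 h called 2 in each direction, Phlda1 at 1.08 and Klf2 at -1.13 among them, and 3 in each direction at 24 h, led by Klf4 at 0.79. With DMF 11.1% of all genes were called at 4 h and 25.1% at 24 h. CBD at 24 h called 11 of 16, 5 higher and 6 lower, beside 48.7% of all genes, with Klf4 at 1.42 and Egr2 at -1.02. The median was -0.12 with DMF at 4 h and -0.26 with CBD at 24 h.

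The last list held 19 MAP kinases and serum response factor partners that act upstream of Fos. Map3k8, the kinase TPL2 that relays LPS to ERK, rose with LPS by 1.13 against DMSO and 1.37 against EtOH at 4 h and was lower with DMF, at log2 fold change -1.19 ± 0.20, adjusted p = 0.00504. Elk3, a ternary complex factor at the Fos promoter, changed by -0.65 with DMF at 4 h and -1.34 with CBD at 24 h. Of the 19, LPS called 4 (1 higher) against DMSO and 2 (1 higher) against EtOH at 4 h, and 5 (1 higher) and 4 (1 higher) at 24 h. Of all genes 14.1% and 10.2% were called at 4 h and 22.7% and 20.5% at 24 h. DMF called 3 (1 higher) at 4 h and 4 (0 higher) at 24 h, and CBD 10 (3 higher) at 24 h, beside 11.1%, 25.1% and 48.7% of all genes. In no list was a gene called with MMF at either time or with CBD at 4 h by limma. Of all genes, 0.122% were called with MMF at 4 h, 0% with MMF at 24 h and 0.00875% with CBD at 4 h.

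The genes whose 12 group means most resembled each member were sought among 1518 well-expressed genes with a wide spread of group means, as Pearson's r of log2 levels. The 12 points share libraries' size factors and split by time, and r is given as a description. For Fos they were Frmd4b (r = 0.94) and Rin2 (r = 0.90), for Fosb Cxcr4 (r = 0.77) and Tmem158 (r = 0.73), for Fosl1 Txnrd1 (r = 0.87) and Eid3 (r = 0.84) and for Fosl2 Kdm5b (r = 0.97) and Gpr141 (r = 0.97). Txnrd1 encodes thioredoxin reductase 1. Jun was closest to Hecw2 (r = 0.98) and Spsb2 (r = 0.98), Junb to Slc7a7 (r = 0.96) and Isg20 (r = 0.95) and Jund to Lilrb4b (r = 0.95) and Lilrb4a (r = 0.95). Maff was closest to Rusc2 (r = 0.87) and Slc2a1 (r = 0.85), the latter the glucose transporter GLUT1, and Ier3 resembled Phlda1 (r = 0.85). Egr1 was too low to be included.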

How the data were processed

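Poly(A) RNA of BV-2 cells was sequenced in 36 libraries. Per the labels, submitters' processing notes and the study's methods, the authors trimmed reads with cutadapt 4.4 and Trimmomatic 0.39, aligned them to GRCm39 with HISAT2 2.2.1, counted them per gene with HTSeq 2.0.3 and scaled them with DESeq2 1.40.2 in R 4.3.1. The deposited signal is a normalized count, reads divided by the DESeq2 size factors of the 2 groups in each of 30 tables. Their columns of fold changes, p-values and adjusted p-values hold the authors' own tests and were not used. Whole reads were recovered for 100% of 3127002 values (within 0.01 read), and joint size factors over the 36 libraries were computed from these.

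Each comparison was fitted with limma 3.58.1 (R 4.3.3, lmFit and eBayes with a trend) on log2(normalized count + 1), on the 6 libraries of its own table, for genes with at least 10 normalized counts in at least 3 libraries. Differences between times were fitted on 12 libraries under the joint factors. All tests were two-sided and adjusted by Benjamini-Hochberg over all genes. Alternatives were a pseudocount of 4, no filter, TMM scaling, a fit of all 36 libraries, edgeR 4.0.16 and DESeq2 1.42.0 on recovered reads, the replicate number as a block, and leaving out each library. Fits were tested on simulated data with known changes.

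The 10 genes were named in every comparison, and at most the 2 called genes of each list with the largest fold change. Members and lists were chosen with earlier results of these data known. Replicate numbers were taken to pair libraries where all correlations of same-numbered deviations were over 0.1, which held for 14 of 20 comparisons with shared numbers, DMF against LPS at both times among them but neither MMF against LPS nor DMF against MMF at 4 h. In some of those that met this rule, not every library correlated best with its own number. These were DMF against LPS and CBD against DMF at 4 h, CBD against LPS and DMF against MMF at 24 h, and LPS with MMF between the times. Pairing is less certain there. No libraries of a group agreed within sampling noise. Some items met in the analysis are not reported here.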

Additional observations from a re-analysis of the deposited data

Results flagged for a closer look

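The effect of LPS or of a drug differed between 4 h and 24 h by the test of that difference (limma on 12 libraries, adjusted p under 0.05) for 12 of 50 gene and effect pairs. All values are the log2 effect at 24 h minus that at 4 h, so a negative value is an effect that was lower at 24 h. For LPS against DMSO the difference was -1.50 ± 0.29 (SE), adjusted p = 0.00631, for Ier3 and -0.48 ± 0.12 (SE), adjusted p = 0.0242, for Jun. For LPS against EtOH it was -2.52 ± 0.29 (SE), adjusted p = 0.000396, for Ier3, -1.42 ± 0.28 (SE), adjusted p = 0.00654, for Maff and -1.07 ± 0.24 (SE), adjusted p = 0.0117, for Fosl2. Jun and Fos in the same comparison had -0.48 ± 0.10 (SE), adjusted p = 0.00922, and 0.73 ± 0.19 (SE), adjusted p = 0.0304. For DMF against LPS the difference was 1.89 ± 0.16 (SE), adjusted p = 7.82e-06, for Fos and 0.45 ± 0.14 (SE), adjusted p = 0.0423, for Jun. For CBD against LPS it was -0.68 ± 0.16 (SE), adjusted p = 0.00546, for Fos, 0.59 ± 0.20 (SE), adjusted p = 0.0395, for Jund and 0.30 ± 0.10 (SE), adjusted p = 0.0422, for Jun. Groups of 3 are too small for a check of single outlying libraries.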

How the results depend on the processing

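No call of the 10 genes changed direction in any alternative tried. Of 106 calls in the 30 comparisons, 96 were made in every other setting, 75 without each library in turn, and 73 in both, and of 12 calls on differences between times the counts were 9, 7 and 7. The count of genes called moved by more than 1.5 times in these cases. For LPS against EtOH at 4 h it was 5 with all 36 libraries and 4 with DESeq2, in place of 2. For DMF against MMF at 24 h it was 0 with all 36 libraries and 4 with the replicate block, in place of 1. The block gave 7 in place of 4 for DMF against LPS at 24 h, 1 in place of 0 for MMF against LPS at 24 h, 2 in place of 1 for MMF against LPS at 4 h, where the numbers do not pair, 5 in place of 0 for DMSO against EtOH over both times, and 20 in place of 13 for CBD against DMF and against MMF over both times. Over the 3 drug effects whose difference between times could be blocked, it gave 9 in place of 5. The block also called a larger share of all genes, 39.1% in place of 25.1% for DMF against LPS at 24 h. Beyond calls given in the report, the block ended no call where the numbers pair.

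Leaving out 1 library gave 2 to 3 calls for LPS against DMSO and 1 to 3 against EtOH at 4 h, 4 to 6 against either at 24 h, 2 to 4 for DMF at 4 h, 1 to 6 for DMF at 24 h, 0 to 3 for MMF at 4 h, 0 for MMF at 24 h, 0 for CBD at 4 h and 3 to 5 for CBD at 24 h. It gave 2 to 4 for DMF against MMF at 4 h and 0 to 4 at 24 h, 11 to 16 for CBD against the fumarates, 24 to 30 for drugs against vehicles, 32 to 37 for the times, 7 to 13 for the differences between times and 0 for DMSO against EtOH. The causes were not tested. Fosb and Egr1 rest on few reads, which limits what can be detected in them.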
